A study of Mus musculus with 6 samples.

Results

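The variable (V) segments of the immunoglobulin genes were taken as the 218 rows of the count table with the biotype IG_V_gene, among 50686 genes in all. By the prefix of the symbol, 113 were heavy chain segments (Ighv, chromosome 12), 100 were kappa segments (Igkv, chromosome 6) and 3 were lambda segments (Iglv, chromosome 16). The remaining 2, Gm42543 and Gm43218, carry none of these prefixes and held at most 6 counts in a library. Of the 218 members, 59 had 0 counts in all 6 libraries, 155 had a count in at least 1 Eumyc library and 50 in at least 1 WT library. The Eumyc libraries were sequenced more deeply, so these counts of detected segments are not compared between the groups.

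Antibodies are built from a heavy and a light chain, and the light chain is either kappa or lambda. In a developing B cell a V segment is joined to short D and J segments (heavy chain) or to a J segment (light chain), and the joined exon is transcribed with a constant region gene. A B cell clone therefore transcribes mainly its own heavy V segment and its own light V segment, whereas a mixed population of B cells or plasma cells transcribes many. Natural killer (NK) cells do not make antibodies and do not carry out this joining.

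The study sequenced RNA from splenic NK cells of C57BL/6J mice. The 3 Eumyc libraries came from mice that had received Eµ-myc lymphoma, a B cell lymphoma in which the immunoglobulin heavy chain enhancer drives Myc, by intravenous inoculation, with spleens taken at day 14. The 3 WT libraries came from healthy mice, labelled as wild type. The labels give no genotype for the Eumyc mice beyond the strain, and do not say whether the inoculated lymphoma was a single clone. In both groups B cells had been depleted with an antibody, NK cells were enriched with CD49b beads, and NK1.1-positive cells without the T cell receptor beta chain were sorted. For Eumyc the bead-bound and the unbound cells both entered the sort, so this step and the lymphoma cannot be told apart. No label says that replicates are different mice, so the p-values measure the spread between these samples, which may be technical. The Eumyc libraries held 44456157 to 66615602 gene counts and the WT libraries 16407611 to 36534191, and intervals below cover counting error only, because PCR copies cannot be recognised. NK markers were abundant in all libraries, with Ncr1 at 1071 to 1197 CPM (counts scaled to a common library size with TMM) in Eumyc and at 1315 to 1395 CPM in WT.

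The heavy segments that led in the Eumyc libraries, Ighv1-80, Ighv1-82 and Ighv1-76, and the runner-up Ighv1-81 belong to the Ighv1 family. They lie on the minus strand of chromosome 12 (GRCm38), at chr12:115912344-115912776, chr12:115952538-115953005, chr12:115847881-115848331 and chr12:115920279-115920712. Their GENCODE coding stretches of 351 bases had 88.0% to 95.4% pairwise identity, the closest pair being Ighv1-80 and Ighv1-82. The last 240 bases of each are shown, and capitals mark the 41 positions at which the 4 segments are not all alike. Over all 351 bases there were 61 such positions. Differences of this kind can set the segments apart in reads.
Ighv1-80: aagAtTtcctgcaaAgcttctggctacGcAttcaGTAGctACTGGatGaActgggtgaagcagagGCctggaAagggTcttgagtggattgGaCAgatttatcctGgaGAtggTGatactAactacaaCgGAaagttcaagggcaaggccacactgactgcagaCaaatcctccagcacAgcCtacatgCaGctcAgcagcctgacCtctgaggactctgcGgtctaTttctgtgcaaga
Ighv1-82: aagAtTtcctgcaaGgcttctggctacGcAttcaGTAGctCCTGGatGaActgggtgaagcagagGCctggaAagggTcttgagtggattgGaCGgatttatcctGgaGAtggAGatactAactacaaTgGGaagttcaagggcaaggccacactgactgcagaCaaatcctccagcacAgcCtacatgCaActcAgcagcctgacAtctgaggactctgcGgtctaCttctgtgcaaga
Ighv1-81: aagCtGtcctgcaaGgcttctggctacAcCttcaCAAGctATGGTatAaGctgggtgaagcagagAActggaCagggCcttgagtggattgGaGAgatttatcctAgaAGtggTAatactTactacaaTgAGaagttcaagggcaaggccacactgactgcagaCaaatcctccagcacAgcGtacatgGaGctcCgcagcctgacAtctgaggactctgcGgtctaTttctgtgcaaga
Ighv1-76: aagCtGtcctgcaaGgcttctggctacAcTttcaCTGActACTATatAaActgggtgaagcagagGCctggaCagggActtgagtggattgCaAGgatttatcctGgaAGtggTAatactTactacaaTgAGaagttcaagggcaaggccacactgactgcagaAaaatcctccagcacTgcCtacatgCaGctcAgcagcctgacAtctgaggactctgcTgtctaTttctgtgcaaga

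The kappa segments that led in at least 1 library were Igkv10-96 (chr6:68631963-68632442, minus strand), Igkv4-55 (chr6:69607275-69607828, minus strand) and Igkv14-111 (chr6:68256389-68256869, plus strand), of 3 different families with 63.6% to 76.7% pairwise identity. Ighv6-3 (chr12:114391712-114392169, minus strand) led among heavy segments in WT 1 and WT 2. The last 120 coding bases of each are given, with the last in-frame cysteine codon, which stands at the edge of the antigen-binding loop formed by the joint, in capitals.
Igkv10-96: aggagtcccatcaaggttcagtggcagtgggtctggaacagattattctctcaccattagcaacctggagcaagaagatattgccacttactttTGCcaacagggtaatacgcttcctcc
Igkv4-55: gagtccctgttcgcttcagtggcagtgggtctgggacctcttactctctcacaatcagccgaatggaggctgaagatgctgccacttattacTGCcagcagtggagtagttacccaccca
Igkv14-111: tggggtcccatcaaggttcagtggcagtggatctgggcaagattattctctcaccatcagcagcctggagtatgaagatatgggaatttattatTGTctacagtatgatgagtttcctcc
Ighv6-3: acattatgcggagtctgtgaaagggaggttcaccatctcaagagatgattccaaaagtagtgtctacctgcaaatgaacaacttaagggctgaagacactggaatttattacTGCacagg

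V segment transcripts were more abundant in the Eumyc libraries than in the WT libraries for all 3 chains. Summed over the 218 members, the level was 100.1, 126 and 274 CPM in Eumyc 1, 2 and 3, against 6.06, 4.43 and 7.30 CPM in WT 1, 2 and 3. The lowest Eumyc library was 13.7 times the highest WT library, and the mean was 167 ± 94.0 CPM in Eumyc and 5.93 ± 1.44 CPM in WT (SD, n = 3 each), a ratio of 28.1. Without Eumyc 3 that ratio was 19.0. These sums are descriptions, with no test. In bulk RNA, fewer cells of a type and less RNA per cell cannot be told apart.

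Heavy segments summed to 47.7, 60.4 and 138 CPM in Eumyc and to 3.79, 2.78 and 3.29 CPM in WT, a ratio of means of 24.9, which was 16.4 without Eumyc 3. Kappa segments summed to 48.3, 61.8 and 127 CPM in Eumyc and to 2.16, 1.32 and 3.95 CPM in WT, a ratio of 31.9. The 3 lambda segments reached 4.01, 3.52 and 9.05 CPM in Eumyc, against 0.108, 0.324 and 0.0599 CPM in WT, and this ratio of 33.7 was 65.8 without WT 2. For each chain every Eumyc library lay above every WT library, and Eumyc 3 was the highest of all.

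**Figure D1:**
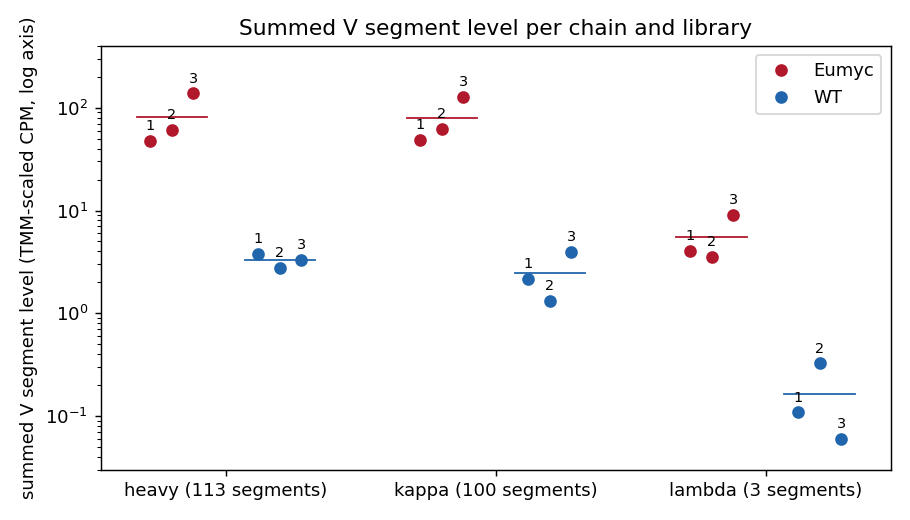
Summed level of the heavy, kappa and lambda V segments in each library, in TMM-scaled CPM on a log axis, with the replicate number at each point and a line at the group mean. The Eumyc points lie at 47.7 to 138 CPM for heavy and 48.3 to 127 CPM for kappa, above all WT points of the same chain, which lie at 2.78 to 3.79 and 1.32 to 3.95 CPM.

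The balance of the chains was even among the Eumyc libraries. Of all V counts, heavy segments took 47.7%, 48.1% and 50.3% in Eumyc 1, 2 and 3, kappa segments 48.3%, 49.1% and 46.4%, and lambda segments 4.01%, 2.80% and 3.30% (exact binomial 95% interval 46.2% to 49.2% for the heavy share of Eumyc 1). In WT the heavy share was 62.5%, 62.8% and 45.1%, on 168, 164 and 122 V counts, and the kappa share was 35.7%, 29.9% and 54.1%. The WT intervals were wide, from 54.7% to 69.8% for the heavy share of WT 1.

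No single heavy segment held most of the heavy counts in a Eumyc library. In Eumyc 1 the leading heavy segment was Ighv1-76, with 332 of 2069 counts or 16.0% (exact 95% interval 14.5% to 17.7%). Eumyc 2 was led by Ighv1-82, with 688 of 3909 counts or 17.6% (16.4% to 18.8%). In Eumyc 3 Ighv1-80 led, with 2004 of 9162 counts or 21.9% (21.0% to 22.7%). The leader was therefore a different segment in each of the 3 libraries. The 3 leading heavy segments together held 35.3%, 46.8% and 37.2% of heavy counts in Eumyc 1, 2 and 3, and the 10 leading segments held 66.4%, 68.9% and 64.7%.

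Each of these leaders was compared with its own level in the other libraries. Ighv1-80 took 3.62% of heavy counts in Eumyc 1 and 0.179% in Eumyc 2, and in WT it had 0, 5 and 0 counts. Ighv1-76 had 0 of 3909 heavy counts in Eumyc 2, which allows a share of up to 0.0767% when the limit is set at 3 counts, and 0 of 9162 in Eumyc 3, which allows up to 0.0327% by the same limit. Ighv1-82, in contrast, ranked 2, 1 and 4 among heavy segments in Eumyc 1, 2 and 3 with 11.8%, 17.6% and 6.70%, and had 0 counts in all 3 WT libraries. Without its leading segment each Eumyc library still summed to 40.1, 49.8 and 107.6 CPM of heavy segments.

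Kappa counts were also spread over many segments in Eumyc. The leading kappa segment was Igkv14-111 in Eumyc 1 (300 of 2094 counts, 14.3%, interval 12.9% to 15.9%), Igkv10-96 in Eumyc 2 (597 of 3995, 14.9%, 13.9% to 16.1%) and Igkv4-55 in Eumyc 3 (1195 of 8457, 14.1%, 13.4% to 14.9%). Igkv4-55 had 0 counts in Eumyc 1 and 32 in Eumyc 2, and Igkv10-96 had 2 counts in Eumyc 1 and 767 in Eumyc 3. The 10 leading kappa segments held 59.2%, 69.8% and 60.8% of kappa counts. Between libraries the size of the leading share varied little, while the segment that held it changed.

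WT libraries had a narrower kappa profile on few counts. Igkv14-111 alone held 52 of 60 kappa counts in WT 1 (86.7%, interval 75.4% to 94.1%), 24 of 49 in WT 2 (49.0%, 34.4% to 63.7%) and 31 of 66 in WT 3 (47.0%, 34.6% to 59.7%). All other kappa segments together held 1794, 3622 and 8170 counts in Eumyc 1, 2 and 3, against 8, 25 and 35 in WT 1, 2 and 3. Among heavy segments Ighv6-3 led WT 1 (23 of 105 counts, 21.9%) and WT 2 (27 of 103, 26.2%), and Ighv3-6 led WT 3 (23 of 55, 41.8%).

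**Figure D2:**
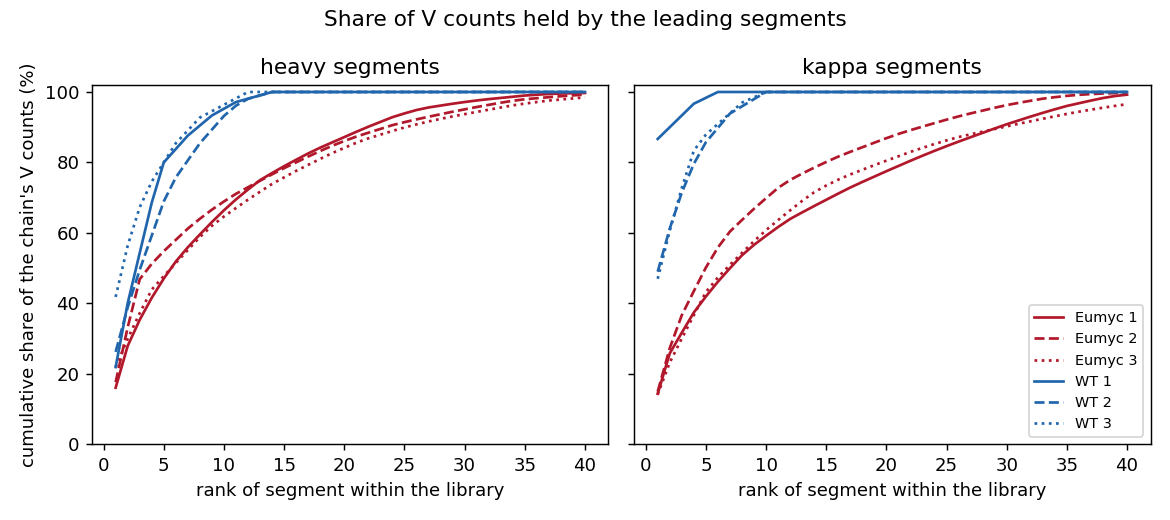
Cumulative share of the heavy (left) and kappa (right) V counts against the rank of the segment within each library, 1 line per library. The Eumyc lines reach 64.7% to 68.9% of heavy and 59.2% to 69.8% of kappa counts at rank 10, below the WT lines, which reach 93.2% to 96.4% and 100% at that rank.

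An effective number of segments, the inverse of the sum of squared shares, puts each profile in a single value: it equals 1 when a single segment holds all counts. For heavy segments it was 15.2, 11.7 and 13.1 in Eumyc and 7.14, 7.77 and 4.48 in WT. For kappa segments it was 18.3, 14.7 and 18.7 in Eumyc and 1.32, 3.57 and 3.70 in WT. Few counts lower this value, so each chain was also thinned to the smallest count of any library, 55 for heavy and 49 for kappa. The thinned means were 11.3 in Eumyc and 6.30 in WT for heavy, and 13.6 in Eumyc and 2.84 in WT for kappa. For both chains all Eumyc libraries stayed above all WT libraries after thinning.

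The lambda chain has few V segments in the mouse, and all 3 were found in each Eumyc library. Iglv1 had 117, 83 and 544 counts in Eumyc 1, 2 and 3, or 67.2%, 36.4% and 90.4% of lambda counts, and 3, 12 and 0 counts in WT. Iglv2 had 40, 113 and 14 counts in Eumyc, against 0, 0 and 1 in WT. Iglv3 had 17, 32 and 44 counts in Eumyc, against 0 in all WT libraries. Iglv1 led in Eumyc 1 and 3 and Iglv2 in Eumyc 2 (49.6%), and these 2 segments are 96.9% identical over their coding bases, so their split is uncertain. Iglv1 overlaps the antisense gene 2010309G21Rik, which had 0, 0 and 3 counts in Eumyc and 0 in WT, and without strand reads of the pair cannot be told apart.

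Many segments were carried mainly by a single Eumyc library. Of 56 heavy segments with at least 30 counts over the Eumyc libraries, 19 had at least 90% of their summed Eumyc CPM in 1 library, and of 61 such kappa segments 20 did. Igkv5-45 is an example, with 0, 0 and 576 counts in Eumyc 1, 2 and 3 and 0 in WT, and Ighv10-3 another, with 1, 535 and 38 counts in Eumyc and 4, 0 and 0 in WT. Others were even: Igkv4-57-1 stood at 5.54, 4.22 and 3.11 CPM in Eumyc and at 0 in all WT libraries, and Igkv1-117 at 2.84, 3.52 and 4.54 CPM in Eumyc and at 0.0721, 0.0270 and 0 CPM in WT. The shared part of 2 profiles, the sum over segments of the smaller of the 2 shares, was 33.4% to 36.6% between Eumyc libraries for heavy segments and 37.4% to 44.6% for kappa segments. Segments with at least 10 counts in all 3 Eumyc libraries numbered 14 of 113 for heavy and 16 of 100 for kappa.

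**Figure D3:**
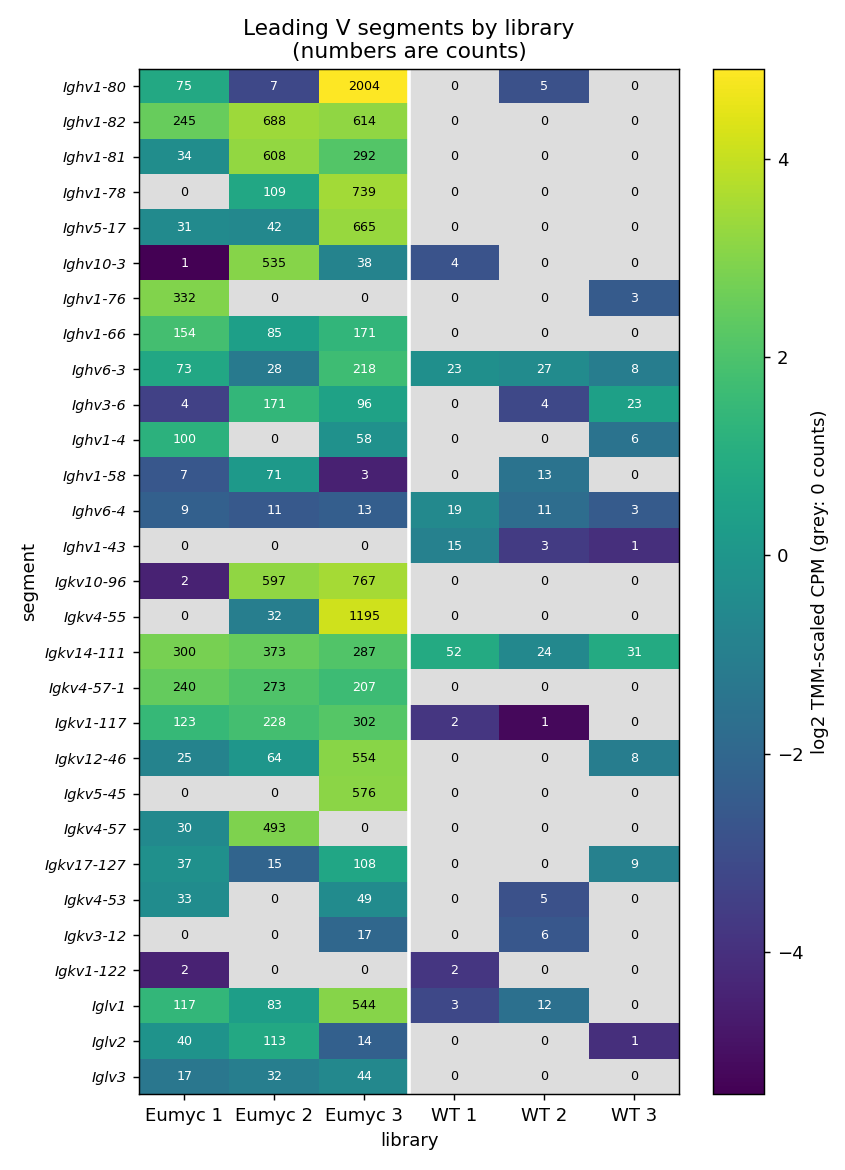
Level of the 3 leading heavy and kappa segments of each library and of the 3 lambda segments, as log2 TMM-scaled CPM in colour, with the counts printed and grey for 0 counts. Eumyc columns stand left of WT columns. Ighv1-80, Igkv4-55 and Igkv5-45 are brightest in Eumyc 3 with 2004, 1195 and 576 counts, whereas Igkv14-111 has counts in all 6 libraries.

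Igkv14-111 was the only member with at least 10 counts in all 6 libraries, and its pattern differed in shape from that of the summed kappa level. It stood at 6.92, 5.77 and 4.32 CPM in Eumyc 1, 2 and 3, and at 1.88, 0.649 and 1.86 CPM in WT. All Eumyc values lay above all WT values, but among the Eumyc libraries it was highest in Eumyc 1, where the kappa sum was lowest. Its log2 fold change was 2.01 ± 0.38 (SE, edgeR adjusted p = 0.00315). Ighv6-3, also found in all 6 libraries, had 1.68, 0.433 and 3.28 CPM in Eumyc and 0.829, 0.730 and 0.479 CPM in WT, and did not pass (log2 fold change 1.37 ± 0.66, adjusted p = 0.117), although it passed without Eumyc 2 (adjusted p = 0.00799).

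Ighv1 held more of the heavy counts in Eumyc, and Ighv6 and Igkv14 held more of their chains' counts in WT. The Ighv1 family, with 53 of the 113 heavy members (46.9%), held 71.5%, 67.4% and 76.5% of heavy counts in Eumyc and 37.1%, 52.4% and 20.0% in WT. Ighv6, a family of 5 members, held 6.67%, 1.33% and 2.63% in Eumyc, against 54.3%, 43.7% and 27.3% in WT. For both families the groups did not overlap. Among kappa families, Igkv4 with 26 of 100 members held 23.5%, 36.2% and 25.2% in Eumyc and 0%, 20.4% and 0% in WT, while Igkv14 with 4 members held 14.3%, 9.44% and 4.15% in Eumyc and 86.7%, 49.0% and 47.0% in WT. In WT all Igkv14 counts were of the single segment Igkv14-111. The Ighv5 and Igkv10 families were among those with counts in every Eumyc library and 0 counts in all WT libraries. These shares were not tested, and the WT shares rest on 49 to 105 counts a chain.

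**Figure D4:**
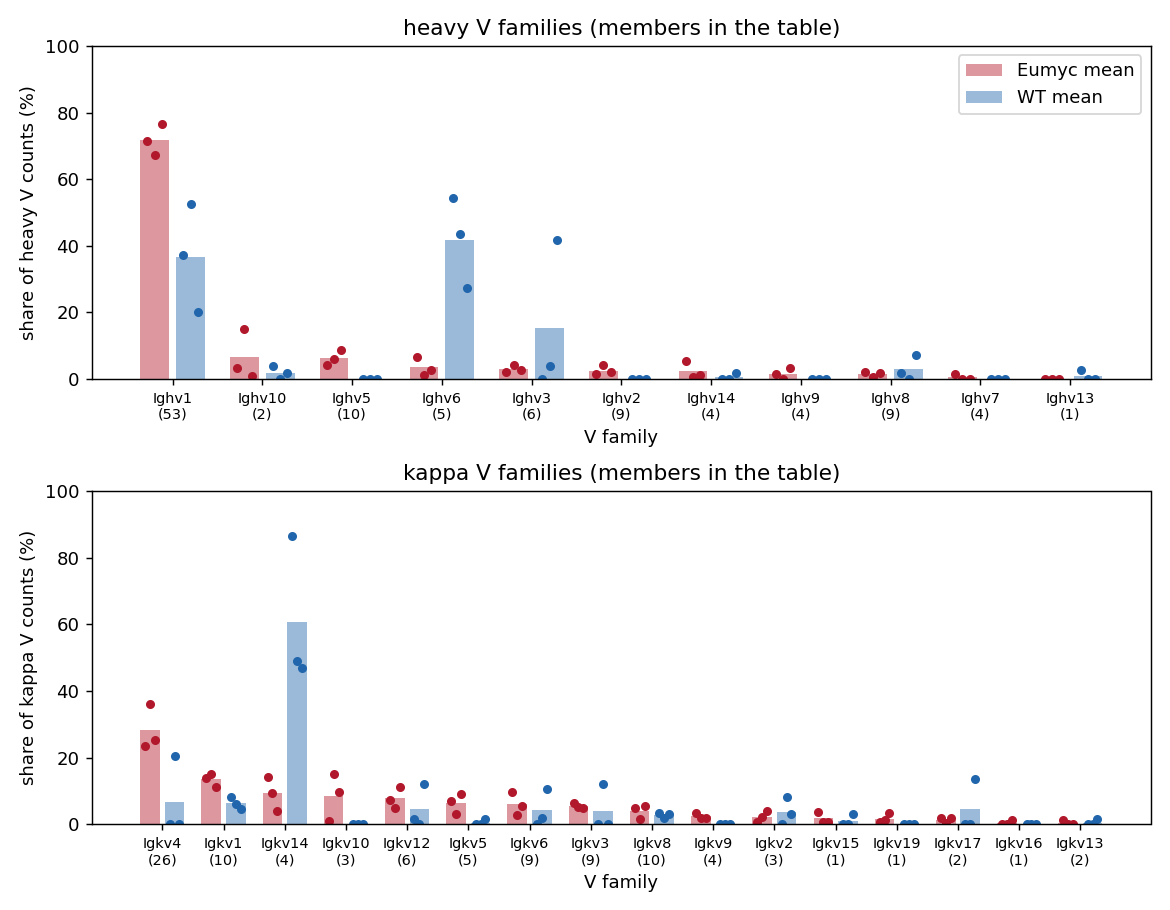
Share of heavy (top) and kappa (bottom) V counts held by each V family, with bars at the group mean, points for the libraries and the number of members in brackets. Families with a mean above 0.4% in either group are drawn. Ighv1 is the tallest heavy bar in Eumyc (mean 71.8%), while in WT Ighv6 (mean 41.7%) and Igkv14 (mean 60.9%) are the tallest.

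Similarity to a neighbour was close for detected and undetected segments alike in both chains. The 80 heavy segments with a count had a median identity of 95.4% to their nearest other heavy segment, and the 33 heavy segments at 0 in all libraries had 94.3%. For kappa these medians were 95.04% over 74 segments with a count and 92.8% over 26 segments at 0. Within each of the heavy, kappa and lambda classes no segment had a coding stretch identical to another.

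V segments lie in long arrays beside their constant genes, and the counts of the groups were divided differently over each array. Ordered by distance from Ighm, the 37 farthest heavy segments held 57.3%, 54.2% and 61.0% of heavy counts in Eumyc and 6.67%, 27.2% and 12.7% in WT. The 38 segments in the middle stretch, 870 to 1605 kb from Ighm, held 28.6%, 34.8% and 22.3% in Eumyc, against 93.3%, 72.8% and 85.5% in WT. Segments of the nearest stretch, also 38, held 11.0% to 16.7% in Eumyc and 0%, 0% and 1.82% in WT. The WT heavy shares rested on 105, 103 and 55 counts, held largely by few segments. The 5 Ighv6 segments had 54.3%, 43.7% and 27.3% of them, and Ighv3-6 alone 41.8% in WT 3. These WT shares therefore do not describe the heavy array as a whole. For kappa the difference ran the other way: the 33 segments farthest from Igkc held 40.9%, 47.8% and 39.5% of kappa counts in Eumyc and 95%, 67.3% and 66.7% in WT. The WT shares rested mostly on Igkv14-111, which lies in this stretch, so they do not describe the kappa array as a whole. That segment alone held 86.7%, 49.0% and 47.0% of kappa counts in WT and 14.3%, 9.34% and 3.39% in Eumyc. The 33 kappa segments of the middle stretch held 35.6%, 39.7% and 42.9% in Eumyc and 1.67%, 16.3% and 18.2% in WT.

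Single segments were tested with edgeR over all genes, and 32 of the 218 members passed its filter on low counts. The filter asks for counts in as many libraries as a group has, so a segment absent from WT enters only if it is present in all Eumyc libraries. Members that pass this way had to differ, and their number of calls supports nothing. Of the 120 members with at least 30 Eumyc counts 88 were not tested, among them Ighv1-80, Igkv4-55 and Igkv10-96, each with few or no counts in a Eumyc library. Of the 32 tested members 26 rose in Eumyc (10 heavy, 14 kappa and 2 lambda), beside 25.7% of all tested genes that rose. None of the 32 fell with edgeR, with 0 lower at an unadjusted p under 0.05, and 0 fell with DESeq2 or limma. With 1 library left out the filter kept other members: 43 of 51 rose without Eumyc 1, 50 of 57 without Eumyc 2 and 30 of 40 without Eumyc 3, beside 22.1%, 23.5% and 20.7% of all genes tested. Without WT 1, WT 2 or WT 3, 27 of 81, 27 of 81 and 40 of 82 members rose, beside 20.4%, 20.2% and 26.5% of all genes. With no filter 93 of 159 members rose and 1 fell (Ighv1-43), beside 17.0% of genes risen, with a filter of 3 CPM in 3 libraries 3 of 3 (29.6% of genes), at equal depth 17 of 19 (26.3%), and with DESeq2 23 of 32 (26.2%).

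Over all 218 members, tested or not, 47 had every Eumyc library above every WT library (20 heavy, 24 kappa and 3 lambda), beside 11.3% of the 50686 genes of the table. Among the 32 tested members 26 did, beside 31.3% of the genes that were tested. Many of those members entered the test only through Eumyc, so the count of 26 supports nothing.

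Of the 26 risen members, 16 had 0 counts in all WT libraries, so that a fold is only a lower bound. These 16 entered the test only through their Eumyc counts, as did Igkv1-117 and Ighv10-1, with few WT counts. Their adjusted p-values are therefore given as description and support nothing. Against a floor of 3 counts over the WT group, Ighv1-82 was at least 241-fold higher in Eumyc (5.65, 10.6 and 9.23 CPM, adjusted p = 0.000189). On the same floor Igkv4-57-1 was at least 112-fold higher (adjusted p = 0.000231) and Ighv5-6, at 0.854, 0.989 and 1.13 CPM in Eumyc, at least 27.4-fold higher (adjusted p = 0.000615). Without WT 2, the deepest WT library, these bounds were 131-fold, 61.1-fold and 14.9-fold, and without WT 1 they were 159-fold, 73.8-fold and 18.0-fold. Igkv1-117, with 653 Eumyc and 3 WT counts, had a ratio of 102 (counting interval 34.6 to 494) and a log2 fold change of 6.52 ± 0.49 (SE, edgeR adjusted p = 0.000132), which was 7.44 without WT 1. Other risen members absent from WT were less even across the Eumyc libraries. Igkv1-135 stood at 1.25, 4.13 and 8.44 CPM in Eumyc, at least 137-fold higher (adjusted p = 0.00288), with bounds of 80.6-fold without Eumyc 3, 90.4-fold without WT 1 and 74.8-fold without WT 2. Ighv1-81 stood at 0.784, 9.40 and 4.39 CPM, at least 145-fold higher (adjusted p = 0.00582), with a bound of 80.6-fold without Eumyc 2, 95.8-fold without WT 1 and 79.3-fold without WT 2. Ighv1-66 was highest in Eumyc 1, with 3.55, 1.31 and 2.57 CPM (at least 63.8-fold higher, adjusted p = 0.000782), and its bound was 42.04-fold without WT 1 and 34.8-fold without WT 2. Among members with a few WT counts, Ighv10-1 stood at 1.59, 0.897 and 0.842 CPM in Eumyc and at 0, 0 and 0.0599 CPM in WT (log2 fold change 6.16 ± 0.83, SE, edgeR adjusted p = 0.000719). For Iglv1 the log2 fold change was 4.51 ± 0.91 (SE, adjusted p = 0.00423), 3.50 without Eumyc 3 and 5.89 without WT 2.

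The other 6 tested members did not pass. Ighv3-6, at 0.0923, 2.64 and 1.44 CPM in Eumyc and 0, 0.108 and 1.38 CPM in WT, had an adjusted p of 0.265, and of 0.0367 without WT 3, its only WT library above 4 counts. Ighv1-4, with 100, 0 and 58 counts in Eumyc and 0, 0 and 6 in WT, had an adjusted p of 0.113, and passed without Eumyc 2 (0.0176) and with no filter (0.0490). Igkv17-127, with 37, 15 and 108 counts in Eumyc and 0, 0 and 9 in WT, had an adjusted p of 0.0887, and passed without WT 3 (0.0108), with limma (0.0352) and with no filter (0.0441). Ighv1-23, chosen after its values were seen as the only tested member with a negative fold change, at 0.161, 0.139 and 0.406 CPM in Eumyc and 0.433, 0.270 and 0 CPM in WT, had a log2 fold change of -0.10 ± 0.78 (adjusted p = 0.923). Among the risen members, Igkv12-46 (0.577, 0.989 and 8.33 CPM in Eumyc and 0, 0 and 0.479 CPM in WT, adjusted p = 0.0251) lost its call without Eumyc 3, WT 1 or WT 2, with adjusted p of 0.110, 0.0957 and 0.102, and with DESeq2 (0.105). Ighv5-17 (31, 42 and 665 counts in Eumyc and 0 in all WT libraries, adjusted p = 0.0228) lost it without WT 1 or WT 2 (0.0613 and 0.0699), as did Igkv19-93 (12, 48 and 282 counts in Eumyc and 0 in WT, adjusted p of 0.0189, then 0.0524 and 0.0609) and Igkv2-112 (16, 32 and 351 counts in Eumyc and 0, 4 and 2 in WT, adjusted p of 0.0226, then 0.0847 and 0.0788). These risen members entered the test only through their Eumyc counts, so neither a kept nor a lost call supports anything. Ighv1-43 was among the 3 leading heavy segments of WT 1. It had 0 counts in every Eumyc library and 15, 3 and 1 in WT, and did not pass the filter. Ighv6-4, with 0.208, 0.170 and 0.196 CPM in Eumyc and 0.685, 0.297 and 0.180 CPM in WT, was also not tested, and its groups overlapped.

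Most constant region genes rose in Eumyc as well. Igkc, the kappa constant gene, stood at 51.1, 69.4 and 137 CPM in Eumyc and at 0.144, 0.297 and 1.98 CPM in WT. Of 10 tested constant genes 9 rose, beside 25.7% of all tested genes, while Ighd fell. Ighg2c, Ighg2b, Ighg3 and Iglc2 had at most 3 counts in a WT library. They were among those that entered the test only through Eumyc, and their calls support nothing. Ighg2c, the constant gene of a class-switched IgG, stood at 28.7, 43.4 and 39.4 CPM in Eumyc and at 0, 0.0270 and 0 CPM in WT. Igha, the IgA constant gene, stood at 26.3, 8.77 and 25.6 CPM in Eumyc and at 0, 0.0270 and 5.99 CPM in WT. Per count of Igkc there were 0.945, 0.890 and 0.926 kappa V counts in Eumyc and 15.0, 4.45 and 2.00 in WT. The WT ratios rest on only 4, 11 and 33 Igkc counts. Of the 60, 49 and 66 kappa V counts in WT 1, 2 and 3, Igkv14-111 alone held 52, 24 and 31. Per heavy constant count, heavy V counts numbered 0.141, 0.144 and 0.186 in Eumyc and 0.0208, 0.0146 and 0.0173 in WT, where Ighm alone had 177 to 184 CPM. Per count of the class-switched heavy constant genes, heavy V counts numbered 0.541, 0.595 and 1.38 in Eumyc. In WT that ratio was 105, 1.56 and 0.529, on 1, 66 and 104 switched counts, so the groups overlapped. These ratios are not corrected for length and are compared only between libraries.

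Jchain, which links antibody units in plasma cells, stood at 16.7, 26.4 and 51.9 CPM in Eumyc and at 0.216, 0.784 and 1.44 CPM in WT. Of 8 plasma cell markers 7 were tested and 5 rose, beside 25.7% of all tested genes. Jchain was among the 5, while Prdm1 fell and Txndc5 did not pass. The summed level of the 8 markers was 428, 417 and 445 CPM in Eumyc and 399, 393 and 385 CPM in WT. Jchain was highest in Eumyc 3, as the V sum was, whereas Mzb1, an endoplasmic reticulum protein of antibody-secreting cells, was highest in Eumyc 2, with 2.68, 4.68 and 3.43 CPM in Eumyc and 0.108, 0.324 and 0.299 CPM in WT. Tnfrsf17 had 0, 4 and 4 counts in Eumyc and 0 in WT. Of 12 B cell markers 10 were tested and 8 rose, beside the same 25.7%. The sum of the 12 was 52.6 to 60.1 CPM in Eumyc and 16.7 to 20.0 CPM in WT. Neither the plasma cell nor the B cell marker sums followed the order of the V sums over the Eumyc libraries. The sum of 6 B cell receptor genes did follow it, at 29.5, 39.9 and 65.0 CPM in Eumyc 1, 2 and 3. In WT that sum was 3.32, 4.16 and 5.93 CPM, and 5 of 5 tested genes rose, beside the same 25.7%. Jchain and Igkc also followed the order of the V sums. Genes also abundant in WT made up most of the plasma cell sum, so its order cannot follow antibody-secreting cells alone. Txndc5, Xbp1 and Prdm1 stood at 160 to 162, 135 to 153 and 84.4 to 91.9 CPM in Eumyc. In WT they stood at 165 to 172, 92.5 to 104 and 114 to 138 CPM. Cd22 alone gave 36.5 to 40.2 CPM of the B cell sum in Eumyc and 11.7 to 14.7 CPM in WT. Among 7 genes of early B cells Vpreb3 alone was tested, and it rose, with 41, 77 and 59 counts in Eumyc and 14, 9 and 2 in WT (log2 fold change 1.73 ± 0.45, SE, edgeR adjusted p = 0.0132). Vpreb1 had 9 counts in each Eumyc library and 12, 21 and 3 in WT, and Rag1 had 5, 2 and 4 counts in Eumyc and 0 in WT. Dntt and Igll1 had at most 8 counts in a library, and Rag2 and Vpreb2 had 0 in all. The part of such cells in the V segment levels was not tested.

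Marker lists of other cell types were read beside all tested genes, of which 25.7% rose and 23.1% fell. Monocyte and macrophage markers rose for 5 of 8 tested, with sums of 404 to 963 CPM in Eumyc and 96.3 to 110 CPM in WT, highest in Eumyc 1. Erythroid markers rose for 5 of 6, T cell markers for 4 of 10 and plasmacytoid dendritic cell markers for 4 of 6 with 1 lower, while 5 of 8 NK markers fell. V segments of the T cell receptor summed to 69.7, 72.3 and 76.9 CPM in Eumyc and to 65.7, 63.9 and 64.2 CPM in WT, and of 22 tested 2 rose and 4 fell. The V pseudogenes of the immunoglobulin arrays, 155 rows in the table, held 27, 35 and 31 counts in Eumyc and 15, 27 and 8 in WT.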

How the data were processed

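The submitters' processing notes name the tools HTSeq 0.6.1, STAR 2.5.2 and DESeq2 1.10.1, and mm10 and GRCm38 as genome builds (names of one assembly). The authors deposited whole-number counts per Ensembl gene. The strand setting, the annotation release and how multiply matching reads were handled: not given in the sources used here. The split between similar segments is therefore uncertain. The authors' comparison table was not used.

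Counts were tested with edgeR 4.0.16 (R 4.3.3): filterByExpr at a minimum count of 10, TMM scaling, group as the only term, two-sided quasi-likelihood test, Benjamini-Hochberg adjustment over 15458 genes, threshold 0.05. CPM values are TMM-scaled, and SE comes from the F statistic. Shares are of a chain's V counts, with exact binomial 95% intervals. Named segments were the 3 leading heavy and kappa segments of each library, all lambda segments, and per chain the 5 called members with the largest and the 5 with the smallest log2 fold change. Members and lists were chosen with earlier results of these data known. Coding stretches came from GENCODE M21 transcripts, whose gene spans equal the deposited ones for 218 of 218 members, with identities from Biopython 1.88 alignments. The edgeR step was tested on simulated counts in which all genes had the same spread between replicates. Many V segments varied more among the Eumyc libraries, so that simulation does not cover their tests. Alternatives included DESeq2 1.42.0 and limma 3.58.1. Figures used matplotlib 3.10.9.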

Additional observations from a re-analysis of the deposited data

How the results depend on the processing

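The count of 26 risen members followed the filter: it was 93 with no filter (159 members tested, 17.0% of all genes risen), 3 with a filter of 3 CPM in 3 libraries and 17 at equal library depth, and it ran from 27 to 50 when single libraries were left out. The count that fell was 0, and 1 with no filter, Ighv1-43. Grouping segments into V families gave mean top shares of 71.8% in Eumyc and 49.5% in WT for heavy chains and 28.3% in Eumyc for kappa, and effective numbers of 1.88 in Eumyc and 2.61 in WT for heavy and 7.15 in Eumyc for kappa, so the heavy order of the groups turned. With the exponential of Shannon entropy the effective numbers were 22.3 in Eumyc and 8.58 in WT for heavy, and 26.2 in Eumyc and 4.29 in WT for kappa. As the inverse sum of squared shares, thinned to equal counts, they were 11.3 for heavy and 13.6 for kappa in Eumyc, and the kappa top share in Eumyc was 16.1%, or 15.9% per kilobase of gene span. Summed levels of the 3 chains kept their direction under 3 other scalings, with V pseudogenes added and without each library. Of 395 repeats over the 27 tested named segments, 372 kept direction and side of the threshold, 15 lost the call, 8 gained it and 0 turned. Segments with 0 counts in all WT libraries, 16 of the 26 risen members, could not turn in any repeat. For them the kept direction supports nothing. Repeats in which a segment dropped out of the test, as with the filter of 3 CPM, are not among the 395. Replicate numbers of the 2 groups share only a number (correlations of deviations 0.040, 0.099 and 0.126), and with a replicate block 28 of the 32 tested members rose, beside 27.0% of all genes tested, Igkv17-127 among them (adjusted p = 0.0228). WT shares rest on 49 to 105 counts a chain.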
